A study of Mus musculus with 4 samples.

Results

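The genes described here are the protein-coding members of 7 solute carrier families that move amino acids and related small molecules across membranes, read in activated mouse T cells. Membership was set by symbol alone, as Slc1, Slc3, Slc6, Slc7, Slc36, Slc38 and Slc43 genes of GENCODE release 21. This gave 63 of 21764 protein-coding genes, and the families were chosen with earlier results of these data known. The samples were 4 RNA-seq libraries of primary T cells from C57BL/6NJ mice, numbered in the labels as biological replicates 1 to 4. The labels describe 1 group only, with no treatment contrast, sex not collected and age unknown. The file headers call every sample mmTh0, bulk, activated, 72 h. The question addressed was therefore which carriers these cells transcribed, at what level, and how far the 4 libraries differed.

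An activated T cell grows fast and depends on imported glutamine, large neutral amino acids, arginine and cystine. Slc1 carriers exchange or co-transport neutral amino acids or glutamate with sodium. Slc38 carriers are sodium-coupled or lysosomal neutral amino-acid transporters. Most Slc7 proteins are light chains that reach the surface only when joined by a disulfide bond to a heavy chain of the Slc3 family, and the other Slc7 proteins carry cationic amino acids alone. Slc43 and Slc36 carriers work without a heavy chain, and the Slc6 family takes up neurotransmitters, taurine, creatine and amino acids with sodium and chloride. Import of leucine and arginine is known to feed the kinase complex mTORC1, and ATF4, MYC and NRF2 are textbook regulators of several of these genes.

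Levels are given as TPM, the fragment count of a gene divided by its exon length and scaled to the same total in each library, so genes can be compared per length. A gene was called detected where all 4 libraries reached 1 TPM. Library totals ran from 49613182 to 94222415 counts, and the 63 genes held between 0.292% and 0.322% of them. All 8 T cell markers examined were detected, with a summed level of 7534 to 7802 TPM, while of the CD8 markers Cd8a stood at 0.190 ± 0.0957 TPM (SD, n = 4) and Cd8b1 was detected at 15.8 ± 2.38 TPM. Most markers of other cells were not detected, with summed levels of at most 5.08 TPM for B cells, 5.19 for natural killer cells, 4.41 for dendritic cells, 0.0210 for neutrophils, 1.06 for erythroid cells and 1.04 for fibroblasts and endothelium. In those lists Cd79b (2.55 ± 0.850 TPM), Eomes (3.45 ± 1.08) and Zbtb46 (3.35 ± 0.565) were detected, at levels like those of the lower detected transporters, and the part of other cells in the transporter levels was not tested. Macrophage markers summed to between 12.2 and 15.3 TPM, nearly all from Cd68 (10.5 ± 0.880 TPM) and Adgre1 (3.21 ± 0.525), which were detected. Lyz2, Csf1r, Itgam and Mrc1 of the same list had at most 1, 8, 1 and 5 counts in any library. The labels give 1 donor identifier for all libraries, yet Xist stood at 332, 150 and then 0.877 and 0.392 TPM in replicates 1 to 4, and the Y-linked Ddx3y at 0.0344, 0.0834, 49.0 and 45.8 TPM. Xist is transcribed in female cells and Ddx3y in male cells, so the libraries cannot all come from 1 animal. The labels do not say how many animals each library holds, and every p-value below rests on these 4 samples alone, not on a known number of animals. In bulk RNA, fewer cells that express a gene and less of its RNA per cell cannot be told apart.

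Of the 63 genes, 27 were detected, beside a background of 49.4% of all protein-coding genes. A further 24 had 0 counts in every library (38.1%, against 29.6% of all protein-coding genes), and 12 had some counts without reaching 1 TPM throughout. Levels were spread widely among the detected carriers, with 7 at a mean of 100 TPM or more, 7 between 10 and 100 and 13 between 1 and 10. Their median was 17.5 TPM against 34.8 TPM for all 10754 detected protein-coding genes. The sum over all 63 genes was 1821 ± 113 TPM, with replicate 3 highest at 1976 and replicate 2 lowest at 1706. The 10 highest genes made up 92.8% ± 0.104 of that sum, and the 5 highest 62.8% ± 0.345.

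**Figure D1:**
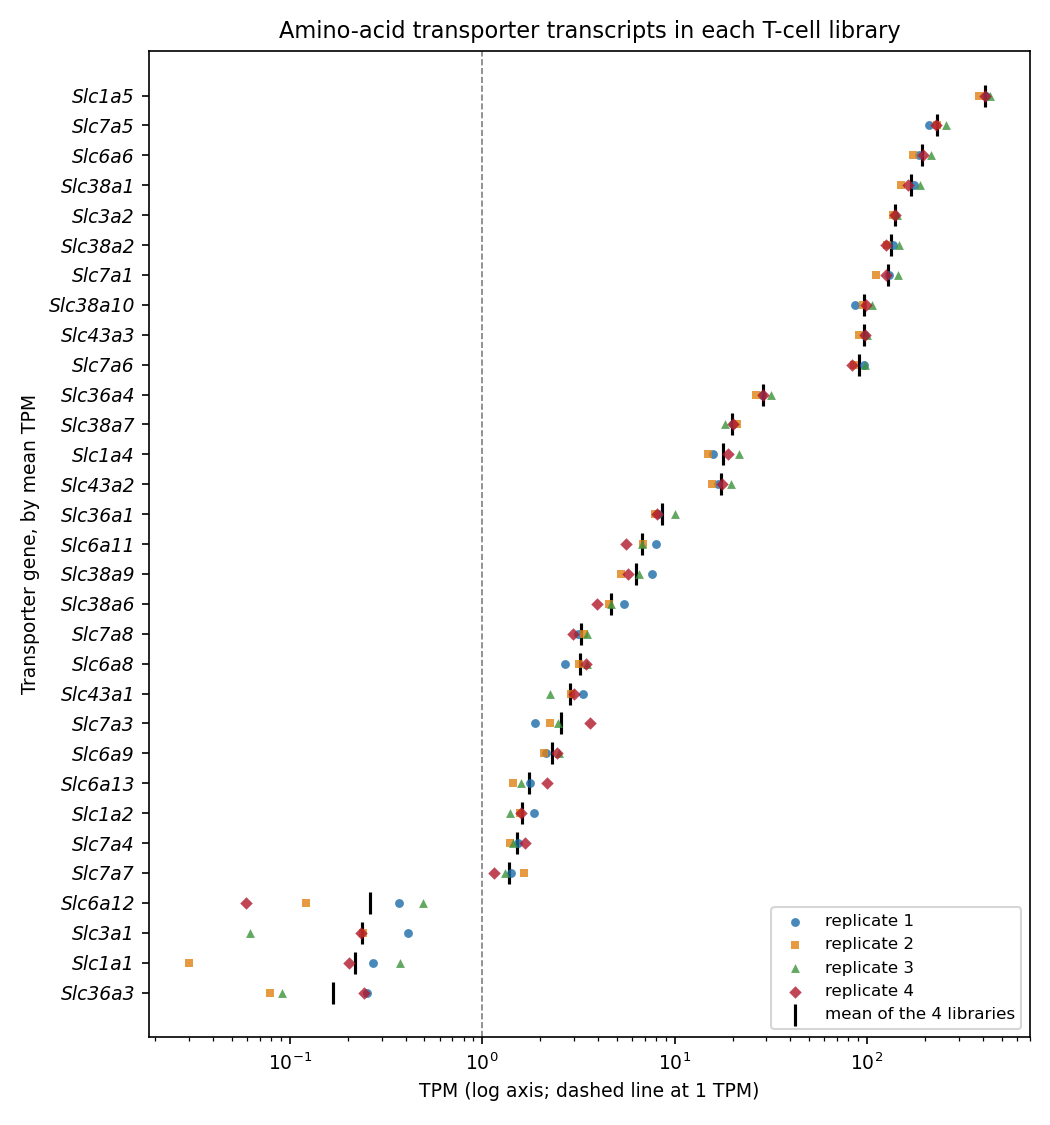
TPM of every transporter gene with a mean of at least 0.1 TPM (log axis), one symbol per library and a black bar at the mean of the 4 libraries. Slc1a5 lies highest at 409 TPM, 10 genes lie above 90 TPM, and the 4 genes left of the dashed line at 1 TPM scatter widely and rest on few counts.

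The highest level belonged to a glutamine carrier. Slc1a5 encodes ASCT2, the exchanger that brings glutamine and other neutral amino acids into the cell (chr7:16781340-16798274, plus strand, mm10). Its level was 413, 380, 434 and 409 TPM in replicates 1 to 4, a mean of 409 ± 22.2 (SD, n = 4), and ranked 351 among 21764 protein-coding genes. It was the highest of the 63 genes in every library, and its 4 values lay within 1.14-fold of each other. Its paralog Slc1a4, the alanine, serine and cysteine carrier ASCT1, stood at 15.9, 14.8, 21.6 and 18.9 TPM, so that all 4 Slc1a5 values lay far above all 4 Slc1a4 values. The difference was 4.46 ± 0.17 in log2(TPM + 1). Of the 5 high-affinity glutamate transporters of the same family, Slc1a2 was the only one detected, at 1.60 ± 0.193 TPM. Slc1a1 stood at 0.219 ± 0.144 TPM, and Slc1a3, Slc1a6 and Slc1a7 had 0 counts in every library. At 3 counts, that allows at most 0.0252, 0.1001 and 0.0641 TPM respectively in any library.

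Differences between genes were tested for 18 chosen pairs with sign flips of the difference within each library (exact test, two-sided). The smallest p that 4 libraries allow is 2 of 16 sign patterns (adjusted p = 0.132 by this exact test), which lies above the threshold for any pair. All pairs but Slc38a5 with Slc38a3 had the same direction in 4 of 4 libraries and reached that smallest p. Slc38a5 had 0 counts and Slc38a3 at most 6 in any library. The pseudocount of 1 understates differences that involve genes near 0.

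The sodium-coupled carriers SNAT1 and SNAT2, which take up glutamine and small neutral amino acids, were the next neutral pair. Slc38a1 stood at 175, 151, 189 and 163 TPM and Slc38a2 at 136, 127, 147 and 125 TPM. Slc38a1 was higher in each library, by 0.34 ± 0.06 in log2(TPM + 1). The 2 genes lie on the same strand of chromosome 15 with 44480 bases between them (chr15:96571418-96642913 and chr15:96687394-96699698, mm10). Slc38a10, a less studied relative, stood at 96.5 ± 8.21 TPM. The lysosomal glutamine exporter Slc38a7 was at 19.9 ± 1.13 TPM and Slc38a9, the lysosomal arginine sensor that signals to mTORC1, at 6.29 ± 1.05 TPM. Slc38a9 minus Slc38a7 was -1.53 ± 0.24 in log2(TPM + 1), again with 1 sign in 4 of 4 libraries. Slc38a6 was detected at 4.65 ± 0.613 TPM. The system N glutamine carriers were not detected, as Slc38a5 had 0 counts and Slc38a3 had 0, 0, 1 and 6 counts.

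The large neutral amino-acid carrier LAT1, encoded by Slc7a5 (chr8:121881150-121907694, minus strand, mm10), lay below Slc1a5 alone per all exon bases, and below Slc3a2 and Slc6a6 as well with principal transcript lengths. It stood at 210, 231, 257 and 229 TPM, a mean of 232 ± 19.4, with replicate 3 highest and replicate 1 lowest. Its heavy chain 4F2hc, encoded by Slc3a2 and also known as CD98, stood at 139, 137, 143 and 140 TPM. These 4 values differed by no more than 1.04-fold, and the coefficient of variation of 1.70% was the smallest of the 27 detected genes. Slc7a6, the light chain y+LAT2 that exchanges cationic for neutral amino acids, stood at 96.3, 86.0, 97.7 and 83.5 TPM. The 2 other surface light chains that were detected stood far lower, LAT2 (Slc7a8) at 3.25 ± 0.241 TPM and y+LAT1 (Slc7a7) at 1.38 ± 0.213 TPM. Slc7a5 thus made up 70.8% ± 2.19 of the summed light-chain TPM, between 67.5% and 72.4% in single libraries. Slc7a6 exceeded its close relative Slc7a7 by 5.27 ± 0.17 and Slc7a5 exceeded Slc7a8 by 5.78 ± 0.09 in log2(TPM + 1).

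The order of Slc3a2 and Slc7a5 depended on the length used. Per all annotated exon bases (3529 for Slc3a2 and 3708 for Slc7a5), Slc3a2 lay below Slc7a5 in 4 of 4 libraries, by a log2(TPM + 1) difference of -0.72 ± 0.10, and the heavy chain stood at 0.428 ± 0.0226 of its summed light chains. Per the length of the annotated principal transcript (1819 and 3517 bases), a scaling added after seeing the data, Slc3a2 stood at 190 TPM and Slc7a5 at 171 TPM. The difference then changed sign to 0.15 ± 0.10 in 4 of 4 libraries, and the heavy-to-light ratio became 0.754 ± 0.0388. Which exons the cells used was not measured, so these data do not order the 2 partners.

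**Figure D2:**
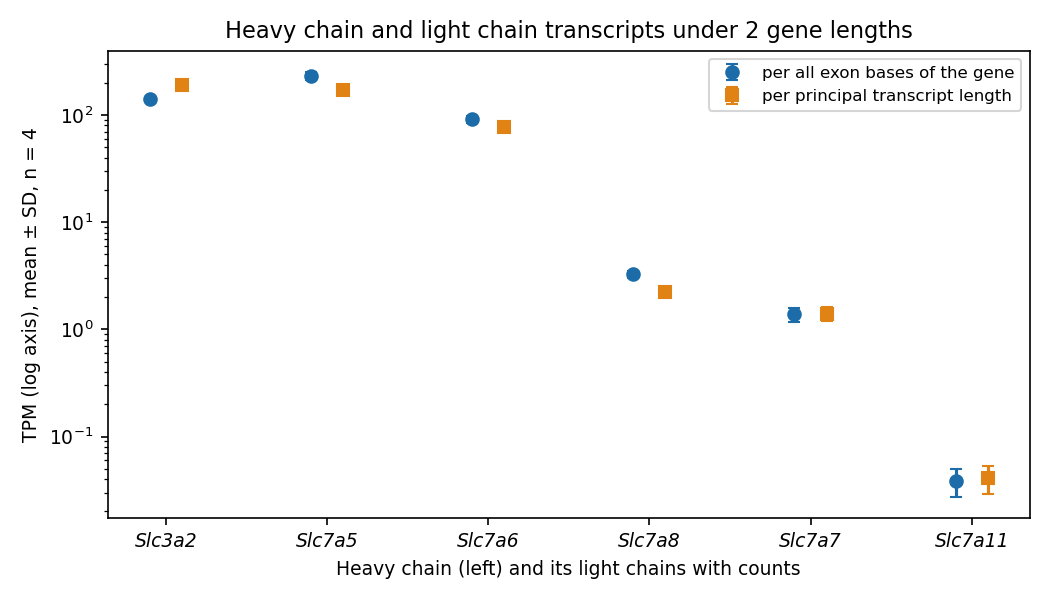
TPM of the heavy chain Slc3a2 and of the 5 light chains with counts (log axis; mean ± SD of 4 libraries), per all exon bases (blue circles) and per principal transcript length (orange squares). Slc3a2 lies below Slc7a5 with the first length and above it with the second, while Slc7a8, Slc7a7 and Slc7a11 lie far lower with both.

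The cystine and glutamate exchanger xCT, encoded by Slc7a11, was the light chain nearest to the floor among those with counts. It had 7, 9, 6 and 21 counts in replicates 1 to 4, or 0.0300, 0.0400, 0.0309 and 0.0543 TPM. All 4 libraries held some reads, and none came near 1 TPM. Slc7a6 exceeded it by 6.46 ± 0.13 in log2(TPM + 1). The light chains Slc7a9, Slc7a10, Slc7a12, Slc7a13 and Slc7a15 had 0 counts. The other heavy chain, rBAT (Slc3a1) of kidney and gut, had 16, 9, 2 and 15 counts, or 0.238 ± 0.143 TPM.

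Promoter sequence is shown for the near-absent exchanger transcript Slc7a11 and for 3 abundant carriers, Slc3a2, Slc38a2 and Slc7a1, because ATF4 and NRF2 are known to act on genes of these families through short elements near the start. Each line gives the 250 bases before a RefSeq start of assembly GRCm38.p6, 5′ to 3′ on the gene's strand. All 4 genes lie on the minus strand, and the windows are chr3:50443614-50443863 for Slc7a11, chr19:8713898-8714147 for Slc3a2, which lies inside the annotated gene, chr15:96699729-96699978 for Slc38a2 and chr5:148399905-148400154 for Slc7a1. Capitals mark matches on either strand to 4 patterns, the C/EBP-ATF composite element TGATGNAA, the antioxidant response element TGACNNNGC, the E-box CACGTG and the cyclic AMP response element TGACGTCA.
Slc7a11: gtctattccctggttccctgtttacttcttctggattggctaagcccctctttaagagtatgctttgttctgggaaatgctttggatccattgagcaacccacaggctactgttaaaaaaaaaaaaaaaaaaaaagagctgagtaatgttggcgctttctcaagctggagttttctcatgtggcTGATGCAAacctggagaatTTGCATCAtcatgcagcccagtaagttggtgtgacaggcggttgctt
Slc3a2: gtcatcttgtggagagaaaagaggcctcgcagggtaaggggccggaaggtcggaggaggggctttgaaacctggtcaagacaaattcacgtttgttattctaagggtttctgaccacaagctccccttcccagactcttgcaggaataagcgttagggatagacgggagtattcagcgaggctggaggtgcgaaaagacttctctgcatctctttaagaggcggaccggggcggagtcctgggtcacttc
Slc38a2: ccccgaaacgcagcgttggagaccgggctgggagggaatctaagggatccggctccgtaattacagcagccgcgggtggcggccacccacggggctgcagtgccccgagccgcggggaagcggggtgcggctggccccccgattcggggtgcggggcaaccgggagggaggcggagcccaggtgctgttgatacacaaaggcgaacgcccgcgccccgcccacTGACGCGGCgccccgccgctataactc
Slc7a1: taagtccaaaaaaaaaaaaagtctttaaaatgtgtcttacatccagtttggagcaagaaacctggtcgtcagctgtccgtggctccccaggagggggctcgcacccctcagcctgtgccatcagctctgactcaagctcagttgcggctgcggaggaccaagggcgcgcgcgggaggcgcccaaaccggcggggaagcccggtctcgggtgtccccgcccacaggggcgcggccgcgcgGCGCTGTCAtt

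The Slc7a11 window held 2 copies of TGATGNAA facing each other, whose first bases lie 66 and 47 bases before the start. The same pattern occurred in 3.45% of all 32851 promoters of this length, in Slc7a7 and Slc6a21 besides Slc7a11 among the 45 transporter genes with a promoter in the table, and in 0 of the 12 promoters of genes at 10 TPM or more. The Slc38a2 and Slc7a1 windows each held 1 match to TGACNNNGC, 27 and 11 bases before the start, while another RefSeq start of Slc7a1 (window chr5:148392816-148393065, minus strand) had no match to any of the 4, and the Slc3a2 window held no match to any of the 4. No matches overlapped in these windows. TGACNNNGC occurred in 8 of 30 promoters of detected transporters (26.7%), which belong to 7 genes. Its share was 13.6% over the 66 promoters of all transporters, detected or not, and 10.2% over all promoters. The promoters of detected transporters also had more G and C, with a median of 60.8% against 52.4% over all. The part of base composition in the 26.7% was not tested. CACGTG occurred in 6.02% of all promoters and in 9 of the 66 transporter promoters (13.6%). Among the detected transporters it lay in Slc38a7, Slc36a1 and Slc43a1, or 3 of 30 promoters. TGACGTCA occurred in 1.55% of all and in Slc38a6 alone among the transporters. A match describes letters in a window, and none of these data measured binding. Only the windows before each listed start were searched, so elements after that start or further before it would not be seen. A window without a match therefore does not show that the gene lacks the element. The table held no promoter for the other 18 genes, Slc1a5, Slc7a5, Slc6a6, Slc38a1 and Slc43a3 among them.

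The arginine and lysine carrier CAT1, encoded by Slc7a1, stood at 130, 112, 146 and 126 TPM, a mean of 128 ± 14 (chr5:148327410-148399904, minus strand, mm10). Its paralog Slc7a2, the carrier CAT2 known from macrophages, had 1 count in replicate 3 and 0 counts in the other libraries. The difference of 7.01 ± 0.15 in log2(TPM + 1) rests on the pseudocount, as Slc7a2 is at the floor. Slc7a3 (CAT3) was low, at 1.89, 2.26, 2.47 and 3.61 TPM, with replicate 4 highest. Its coefficient of variation of 29.1% was the largest of the 27 detected genes. Slc7a4, another relative, stood at 1.51 ± 0.116 TPM, and the lysosomal Slc7a14 had 0 counts.

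Slc43 was the one family with every member detected, and its members differed widely. Slc43a3, which is known as a purine nucleobase carrier and not as an amino-acid carrier, stood at 96.8, 90.7, 99.9 and 97.8 TPM. LAT4 (Slc43a2), a facilitative carrier of large neutral amino acids, stood at 17.5 ± 1.67 TPM and its relative LAT3 (Slc43a1) at 2.87 ± 0.455 TPM. In log2(TPM + 1), Slc43a1 minus Slc43a3 was -4.66 ± 0.20 and Slc43a1 minus Slc43a2 was -2.26 ± 0.28, each negative in 4 of 4 libraries. Slc43a1 and Slc43a3 lie on the same strand of chromosome 2 with 72984 bases between them.

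In the proton-coupled Slc36 family, PAT4 (Slc36a4) stood at 28.9 ± 2.20 TPM and the lysosomal PAT1 (Slc36a1) at 8.19, 7.92, 10.02 and 8.07 TPM. The value of replicate 3 lay above the other 3, which spanned 7.92 to 8.19 TPM. Slc36a4 was higher in 4 of 4 libraries, and Slc36a1 minus Slc36a4 was -1.65 ± 0.07 in log2(TPM + 1). Slc36a2 had 0 counts and Slc36a3 stood at 0.167 ± 0.0946 TPM, although both lie beside Slc36a1 on chromosome 11, the first within 19272 bases of it.

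The Slc6 family had the most members and the fewest detected in proportion, 5 of 21, and 1 gene carried most of its transcripts. Slc6a6, the taurine transporter TauT (chr6:91684053-91759066, plus strand, mm10), stood at 186, 173, 216 and 195 TPM, a mean of 192 ± 18. The creatine transporter Slc6a8 stood at 3.21 ± 0.371 TPM, which is 5.52 ± 0.13 lower in log2(TPM + 1). The GABA transporter Slc6a11 was present at 8.01, 6.87, 6.74 and 5.59 TPM, with 474 to 784 counts in each library, and a second GABA transporter, Slc6a13, at 1.74 ± 0.319 TPM. The betaine and GABA carrier Slc6a12, with 5342 bases between it and Slc6a13, stood lower at 0.261 ± 0.205 TPM. Slc6a9, the glycine carrier GlyT1, stood at 2.30 ± 0.212 TPM. It was the only detected gene of the 12 grouped here as amino-acid carriers of this family, among them the orphans Slc6a16 and Slc6a21. The monoamine carriers Slc6a2 and Slc6a4 had 0 counts, and the dopamine carrier Slc6a3 had 0, 0, 4 and 1 counts. The paralogs Slc6a20a and Slc6a20b also had 0 counts, but reads shared by near-identical copies may have been left uncounted.

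By family, Slc7 made up 25.3% ± 0.534 of the summed transporter TPM, Slc38 23.7% ± 0.354 and Slc1 23.6% ± 0.410. Slc6 followed at 11.4% ± 0.346, Slc3 at 7.70% ± 0.350, Slc43 at 6.41% ± 0.179 and Slc36 at 2.06% ± 0.0420. With principal transcript lengths, Slc1 led at 25.4%, ahead of Slc7 at 22.8% and Slc38 at 20.2%, so the order of the first 3 families was not settled. By role, the neutral exchangers of Slc1 made up 23.5%, the light chains 17.99%, the taurine, creatine and betaine carriers 10.7% and the cationic carriers 7.27%. The neurotransmitter carriers of Slc6 made up 0.473% and the high-affinity glutamate carriers 0.1002%.

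**Figure D3:**
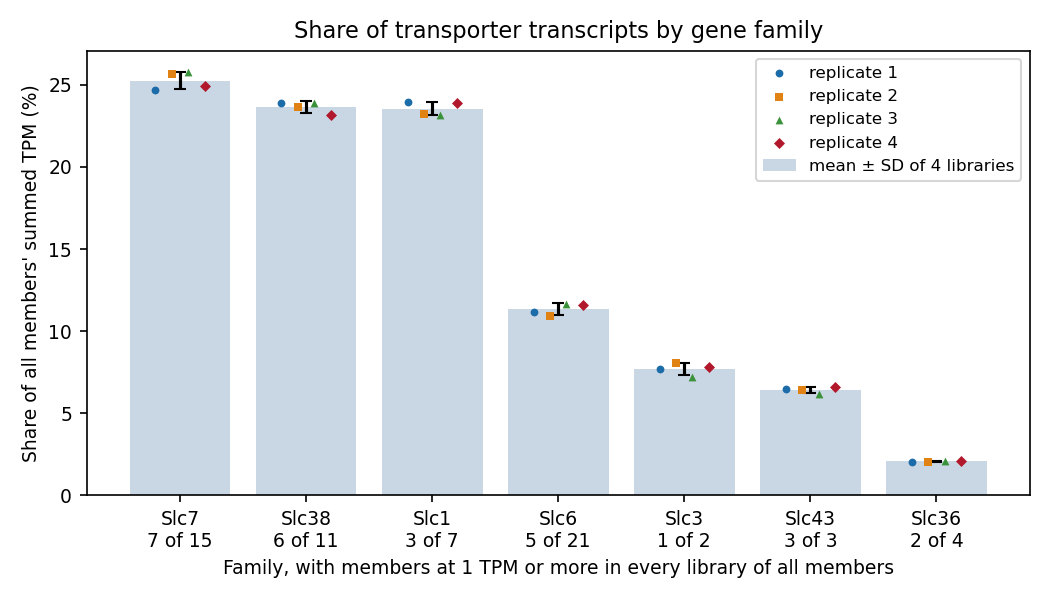
Share of the summed TPM of all 63 transporter genes by family (percent), with bars at the mean, whiskers at ± SD and one symbol per library; the second line of each label gives detected genes of all genes. Slc7, Slc38 and Slc1 each hold between 23.1% and 25.8% in every library, and Slc36 holds 2.06%.

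Neighbours in the order of levels were compared library by library. From Slc1a5 through Slc7a5, Slc6a6 and Slc38a1 to Slc3a2, each gene lay above the next in 4 of 4 libraries. Slc3a2, Slc38a2 and Slc7a1 were not separated, since each of these steps held in 3 of 4 libraries. Slc7a1 lay above Slc38a10 and Slc43a3 above Slc7a6 in 4 of 4 libraries, while Slc38a10 and Slc43a3 were not separated. A gap followed Slc7a6 at 90.9 TPM, as the next gene, Slc36a4, stood at 28.9 TPM. Slc38a7, Slc1a4 and Slc43a2, at 19.9, 17.8 and 17.5 TPM, overlapped in their order. Among the 9 detected genes from Slc7a8 downwards, Slc6a9 over Slc6a13 was the only step that held in every library. Parts of this order depend on the length used. With principal transcript lengths Slc1a5 was still highest at 432 TPM, but Slc3a2 (190) and Slc6a6 (184) lay above Slc7a5 (171), Slc7a1 (144) lay above Slc38a1 (137), and Slc38a2 stood at 93.0 TPM.

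No transporter was called more variable than other genes of its level, but the test recovered only 34% of genes shifted 1.5-fold in simulated data. The spread of each gene was set against the trend of all genes at its level with edgeR, and 0 of the 27 transporters tested passed an adjusted p of 0.05, beside 94 of all 13681 genes tested (0.687%). Without replicate 1, 2, 3 or 4 the count over all genes was 46, 38, 87 and 46, and for the transporters it was 0 each time. At an unadjusted p under 0.05, edgeR called 0 of the 27 and 959 of all genes, and the dispersion rule of DESeq2 called 0 of 39 beside 65 of all 23575 genes (0.276%). The smallest adjusted p by edgeR belonged to Slc1a4 (adjusted p = 0.825), whose highest value, in replicate 3, was 1.46-fold its lowest, in replicate 2. Slc7a3 followed (edgeR adjusted p = 0.909) and was called with a common dispersion alone (adjusted p = 0.0442), a setting that called 4.51% of all genes, while its adjusted p ran from 0.913 to 1.00 under the other alternatives of the edgeR test.

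**Figure D4:**
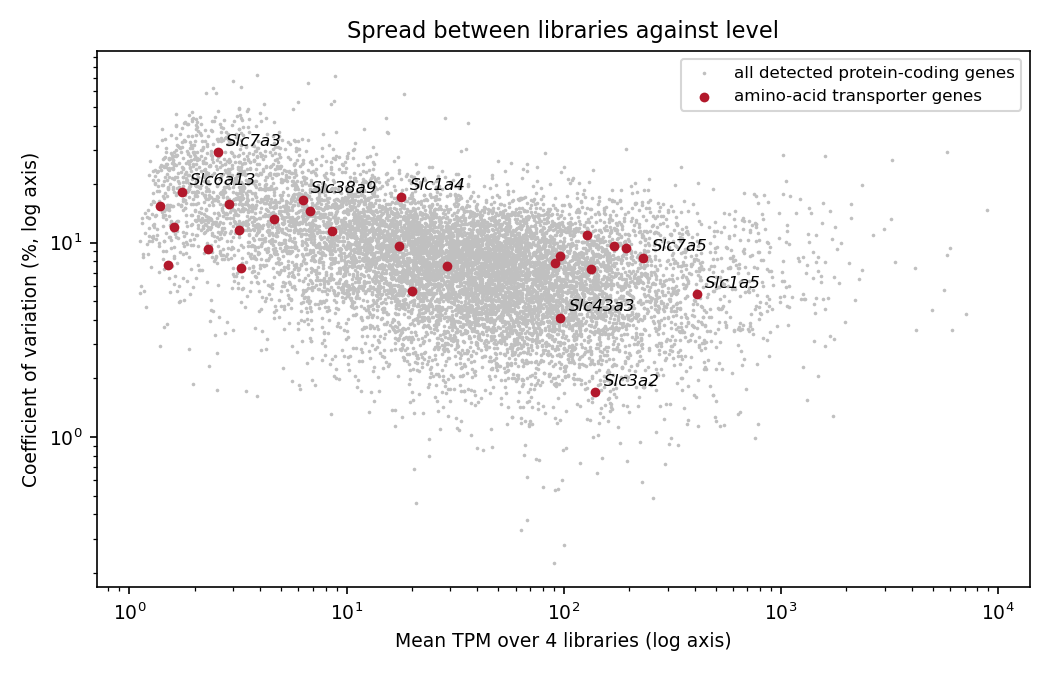
Coefficient of variation over the 4 libraries (percent, log axis) against mean TPM (log axis) for the 27 detected transporters (red) and all 10754 detected protein-coding genes (grey). The transporters lie within the grey cloud, from Slc3a2 at 1.70% to Slc7a3 at 29.1%.

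Replicate 3 held the highest value for 17 of the 27 detected transporters (63.0%), among them the 11 of highest mean, beside 42.4% of all detected protein-coding genes. Replicate 2 held the lowest value for 14 of 27 (51.9%), beside 43%. The median coefficient of variation was 9.56% for the transporters and 7.94% for all. The detected transporters had longer exon models, with a median of 5050 bases against 4170, and the part of length in this lean was not tested. Genes of 1 library share its RNA and its scaling, so the 17 are not separate observations.

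Genes that handle amino acids beyond these families were also read. Of 18 other carriers, 14 were detected, led by the mitochondrial aspartate and glutamate carriers Slc25a13 (49.3 ± 3.27 TPM) and Slc25a12 (44.4 ± 1.82) and the mitochondrial glycine carrier Slc25a38 (43.9 ± 3.73). Slc25a18 had 0 counts, while Slc25a2, Slc32a1 and Slc17a7 stood at 0.121, 0.0467 and 0.383 TPM. Of 17 genes that use amino acids, 15 were detected, led by Mat2a, which makes S-adenosylmethionine (242 ± 21.8 TPM), glutamate dehydrogenase Glud1 (200 ± 4.42) and the aspartate aminotransferase Got2 (170 ± 6.82). The arginases were the exceptions in that list. Arg1 had 0 counts and Arg2 was read in replicate 2 alone, at 0.564 TPM, while the arginine carrier Slc7a1 stood at 128 TPM.

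All 32 genes of the amino-acid sensing route to mTORC1 were detected. Sec13 (179 ± 9.24 TPM), the GTPase gene Rraga (170 ± 7.91) and the Ragulator subunit Lamtor5 (141 ± 13.8) were highest. Lamtor4, another Ragulator subunit, was called for spread between libraries by edgeR. It stood at 83.2, 90.7, 56.8 and 83.5 TPM (adjusted p = 0.0351), low in replicate 3 alone. Without that library its adjusted p by edgeR was 1.00, and over all alternatives it ran from 0.0302 to 1.00. The call held without replicate 1 and ended under the other 7 of 8 alternatives of the edgeR test, among them removal of a length trend (edgeR adjusted p = 0.150), a common dispersion (0.0986) and no filter on low counts (0.328).

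Of 10 regulators tied to these transporters, 8 were detected. Atf4, the factor of the amino-acid response, stood at 624, 655, 616 and 651 TPM, Myc at 496, 449, 523 and 496 TPM and Hif1a at 198 ± 5.08 TPM. Atf4 and Myc both lay above Slc1a5 in 4 of 4 libraries. The paralogs Mycn and Mycl stood at 0.770 and 0.0940 TPM. None of the other 3 lists held a gene called for spread. Over all genes of a list, detected or not, the median was 13.4 TPM for the other carriers. It was 60.4 TPM for the genes that use amino acids, 34.0 for the sensing route and 28.5 for the regulators. On the same basis it was 0.0875 TPM for the 63 transporters and 1.21 TPM for all protein-coding genes, of which 49.4% were detected.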

How the data were processed

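RNA was sequenced in 4 libraries of 1 group. Each library has 1 table, in which the authors deposited unnormalized counts of fragments for each gene. Per the file headers, the authors counted with featureCounts 1.4.6-p4 on reverse-strand exons of GENCODE mouse release 13, both ends required, on an alignment named for STAR. The labels give the build as mm10 and the assay as total RNA-seq, while the name of a linked protocol mentions polyA RNA, and which was used is not given in the sources used here. No option for multimapping fragments was set, so near-identical copies can lose fragments. None of the 63 transporters shares exon bases with another gene on the same strand (0 of 63).

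From these counts and the exon lengths beside them, TPM was calculated here. Symbols came from GENCODE release 21, matched for 50376 of 50600 genes. Where a gene had 0 counts, 3 counts in that library set the limit, which covers counting error only. Spread was tested in edgeR 4.0.16 under R 4.3.3 (TMM, filterByExpr, trended dispersion, intercept-only fit, deviance against chi-square, Benjamini-Hochberg over all genes). The step was tested on simulated counts, with 50 genes at each fold raised in 2 of 4 libraries. It recovered 34% of them at 1.5-fold, 74% at 2-fold and 96% at 4-fold. DESeq2 1.42.0 dispersion outliers were an alternative. Pairs were compared by an exact sign-flip test over 16 patterns, with Benjamini-Hochberg adjustment over 18 pairs. Promoters came from a RefSeq table for GRCm38.p6, and 45 of 63 genes matched. Python 3.11.15 with numpy 2.4.6, pandas 2.3.3 and matplotlib 3.10.9 did the rest.

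The transporters, lists, pairs and motifs were chosen with earlier results of these data known. Named were all transporters with a mean of at least 0.1 TPM, both genes of each pair, and of each list the 3 highest genes, those called and those under 1 TPM. Other genes with few or 0 counts were named after their values were seen. Some genes that this rule names are not reported here. The alternatives changed the TPM threshold (0.5, 5, or 10 counts), the pseudocount (0.1), the gene set behind TPM, the count filter, the dispersion, a length offset, the unit of shares and the replicates kept, and principal transcript lengths were added after seeing the data.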

Additional observations from a re-analysis of the deposited data

Results flagged for a closer look

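Slc36a1 in replicate 3 stood at 10.02 TPM, away from the other 3 libraries. The gap to the nearest of them was 0.873 of the whole range of the gene, above the critical value of Dixon's test for 4 libraries. Of 40 sets of 4 values tested in this way it was the 1 that passed, and chance alone flags about 5 in 100.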

How the results depend on the processing

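No paired analysis was possible because the labels give 1 group. At a TPM threshold of 5, 17 of the 63 transporters were detected in place of 27, and the other thresholds kept the number within 1.5 times. With a common dispersion, 1 of 27 transporters, Slc7a3, was called in place of 0, as 617 of all genes were called in place of 94, and every other alternative gave 0. Principal transcript lengths turned the difference of Slc3a2 minus Slc7a5 from -0.72 to 0.15 in log2(TPM + 1), moved the heavy-to-light ratio to 0.754, and moved 18 of 27 levels by more than their spread. They shifted the median of all genes by -0.17 and that of the transporters by -0.14 on the log2 scale. The family shares became 25.4% for Slc1, 22.8% for Slc7, 20.2% for Slc38, 10.8% for Slc3, 7.89% for Slc43 and 1.53% for Slc36. As shares of counts, which favour long genes by construction, they were 17.2% for Slc1, 26.6% for Slc7, 16.2% for Slc6, 27.1% for Slc38, 4.73% for Slc3, 5.94% for Slc43 and 2.27% for Slc36. TPM over protein-coding genes alone moved 4 of 27 levels by more than their spread, with a median shift of all genes of 0.08. The other 17 pairs kept the sign of their mean difference under every alternative run. For Slc38a5 minus Slc38a3 that sign could not turn positive, as Slc38a5 had 0 counts. Leaving out 1 replicate cannot move a mean of 4 values by as much as their SD, so it was no check of the levels. With 4 libraries and no contrast, no pair can reach a p under 2 of 16 sign patterns, and genes under about 10 counts are described only by their counts. A comparison of the proteins was planned and not run.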

Other observations

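Genes of the same transporter family that lie close together on a chromosome were not always read at similar levels. Within 250 kb, the pair Slc38a1 and Slc38a2 stood at 170 and 134 TPM, whereas Slc43a3 and Slc43a1 stood at 96.3 and 2.87 TPM. The cluster of Slc6a3, Slc6a18 and Slc6a19 on chromosome 13 and the pairs Slc7a9 with Slc7a10, Slc6a16 with Slc6a21 and Slc6a20a with Slc6a20b held no detected gene. These are values of single loci, and no test was made.

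Several genes known mainly from other tissues gave reads in every library. Slc6a11, a GABA carrier of brain glia, had between 474 and 784 counts, Slc1a2, the main glutamate carrier of astrocytes, between 254 and 580, and Slc6a9, a glycine carrier, between 174 and 351. Slc1a1 was read unevenly, with 28, 3, 32 and 35 counts in replicates 1 to 4, and Slc6a12 with 19, 6, 21 and 5.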
